A study of Rattus norvegicus with 9 samples.

Results

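Keratins 8, 18, 19 and 7, which fill the filaments of single-layered and glandular epithelia, and keratins 4 and 13, which pair in the upper layers of moist stratified epithelia, were followed through phorbol ester treatment of cultured rat horizontal basal cells. Earlier results of these data were known when the genes were chosen. The 6 genes Krt8, Krt18, Krt19, Krt7, Krt4 and Krt13 were taken by symbol, by a rule that uses no measured value. Of these, 5 of the 17315 genes in the count tables were analysed, while Krt7 was not analysed here. All 5 passed the filter on low counts applied over the 9 libraries. Horizontal basal cells lie on the basal lamina of the olfactory epithelium and serve as a stem cell reserve. RNA-seq was made from SD rat cells of a primary dissociation at passage 7, with 3 libraries after vehicle (0.1% DMSO, time 0), 3 after 6 h of 50 nM PMA and 3 after 12 h of 50 nM PMA. PMA (phorbol 12-myristate 13-acetate) is a phorbol ester that switches on protein kinase C. No vehicle culture is labelled 6 h or 12 h, so PMA and time in culture cannot be told apart. The labels tie no library to an animal or culture, so p-values measure the spread between these libraries, which may be technical.

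Keratins are intermediate filament proteins that build filaments only as heteropolymers of a type II and a type I chain. Krt8, Krt7 and Krt4 encode type II chains and Krt18, Krt19 and Krt13 type I chains. Keratin 8 usually pairs with keratin 18, and keratin 4 with keratin 13. Basal cells of stratified epithelia rely instead on keratins 5 and 14, and in the olfactory epithelium keratins 8 and 18 mark sustentacular and gland cells. Phorbol esters reach AP-1 factors through protein kinase C and ERK, and AP-1 is a known regulator of several keratin genes.

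In the rat assembly GRCr8, Krt8 and Krt18 stand next to each other on chromosome 7 with no protein-coding gene between them, and Krt79 and Krt78 lie between Krt4 and Krt8. Krt13 and Krt19 flank Krt15 on chromosome 10. RefSeq promoters, 300 bases from 250 before the annotated start to 50 after it, were at hand for 3 of the 5 genes. All of these are shown, as was planned for any promoter at hand. Krt8 and Krt18 were called higher together under PMA, while their chromosome neighbour Krt4 was called lower, at 6 h near the threshold. Capitals mark matches on either strand. The motifs searched were the AP-1 motif (TGANTCA), the GC box (GGGCGG), the CCAAT box (these letters), the TATA box (TATAAA) and the grainyhead or Grhl motif (AACNNGTT). The windows are given in GRCr8 (Krt8 at chr7:135010290-135010589, minus strand; Krt18 at chr7:135035918-135036217, plus strand; Krt4 at chr7:134930664-134930963, minus strand).
Krt8: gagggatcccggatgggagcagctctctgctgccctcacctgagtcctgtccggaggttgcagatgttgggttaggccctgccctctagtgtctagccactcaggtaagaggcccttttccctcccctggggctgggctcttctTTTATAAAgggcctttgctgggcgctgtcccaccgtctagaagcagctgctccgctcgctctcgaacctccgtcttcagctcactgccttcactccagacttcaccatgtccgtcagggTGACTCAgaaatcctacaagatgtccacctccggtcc
Krt18: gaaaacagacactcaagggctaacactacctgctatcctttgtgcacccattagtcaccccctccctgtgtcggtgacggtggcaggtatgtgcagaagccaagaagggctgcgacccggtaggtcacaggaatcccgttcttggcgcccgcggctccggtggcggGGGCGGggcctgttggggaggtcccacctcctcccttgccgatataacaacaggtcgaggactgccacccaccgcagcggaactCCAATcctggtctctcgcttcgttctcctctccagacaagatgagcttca
Krt4: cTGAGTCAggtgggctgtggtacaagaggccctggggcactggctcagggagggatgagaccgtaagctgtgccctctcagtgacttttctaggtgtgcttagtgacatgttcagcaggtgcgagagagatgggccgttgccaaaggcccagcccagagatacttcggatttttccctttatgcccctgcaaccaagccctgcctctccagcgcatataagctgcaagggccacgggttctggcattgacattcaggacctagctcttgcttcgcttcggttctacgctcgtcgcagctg

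The Krt8 window held 1 AP-1 match, which begins at position 14 counted from the annotated start. It also held the TATA box on both strands at places that overlap. The letters at the annotated start of Krt8 are atg, as in a start codon, and no stop codon follows in that frame within the window. The AP-1 match lies in this stretch, so it may be coding sequence rather than promoter. Transcription may not begin at the annotated start, so the Krt8 positions may not be distances from a transcription start. The Krt18 window held no AP-1 match, but 1 GC box and 1 CCAAT box, the latter beginning at position 1, the annotated start itself. In the Krt4 window the only match was 1 AP-1 motif at its far upstream end, at position -249 from the annotated start. The Grhl motif was in none of the 3 windows. Of all 33469 promoters of the same length, 7.33% held the AP-1 motif, 33.1% the GC box, 37.5% the CCAAT box, 14.2% the TATA box and 4.23% the Grhl motif. These matches describe the letters of the windows and name no bound site.

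Libraries held 13601635 to 19001819 reads in genes. Levels are CPM, the reads of a gene scaled to a common library total by TMM, a method that centres the bulk of genes between libraries. They are relative to all RNA of the culture, so that fewer cells of a type and less RNA per cell cannot be told apart. TMM factors were 1.28 to 1.31 in vehicle libraries and 0.848 to 0.911 in PMA libraries, so small differences from vehicle depend on this scaling, as shown for Krt8. The labelled cell type was checked on 7 markers. In vehicle cells Krt5 stood at 6827 ± 817 CPM, Krt14 at 5325 ± 269 CPM and Tp63 at 219 ± 26.6 CPM (SD, n = 3 each), while Cxcl14, also a marker of these cells in mouse, stayed under 1 CPM in every group. Of the 6 tested markers 5 fell at both PMA times (39.0% of all tested genes were called lower at 6 h and 38.2% at 12 h), and Icam1 was called higher (log2 fold change 0.30 at 6 h, where it is -0.24 without scaling, and 1.33 at 12 h). From 6 h to 12 h, 5 of the 6, all but Krt5, were called higher and 0 lower. Among all genes 25.3% were called higher and 25.8% lower in that step.

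The question of the first comparison was how these keratins stood after 6 h of PMA and the answer differed between members. Adjusted p-values are from the quasi-likelihood F test of edgeR, with Benjamini-Hochberg adjustment over 10128 genes. By it the simple keratins Krt8 and Krt18 rose, the mucosal keratins Krt4 and Krt13 fell, and Krt19 did not pass. These counts of 2 higher and 2 lower stand against a background in which 37.8% of all tested genes were called higher and 39.0% lower at 6 h. The median log2 fold change of the 5 genes was -0.51, beside -0.03 for all tested genes.

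At 12 h all 5 genes were called: the simple keratins Krt8 and Krt18 were higher than in vehicle, and the simple keratin Krt19 was lower, as were the mucosal keratins Krt4 and Krt13. Among all genes 37.7% were called higher and 38.2% lower at 12 h against vehicle. The median of the 5 genes was -1.94, beside -0.02 for all genes. Both comparisons share the vehicle libraries.

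From 6 h to 12 h, 1 of the 5 genes was called higher (Krt8) and 2 lower (Krt19 and Krt4), where 25.3% of all genes were called higher and 25.8% lower. The median of the 5 was -0.25, and that of all genes 0.01. Of these 3 calls, that of Krt19 was kept in every alternative run, while those of Krt8 and Krt4 were lost in several. With the PMA libraries alone, Krt4 did not pass the filter on low counts.

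**Figure D1:**
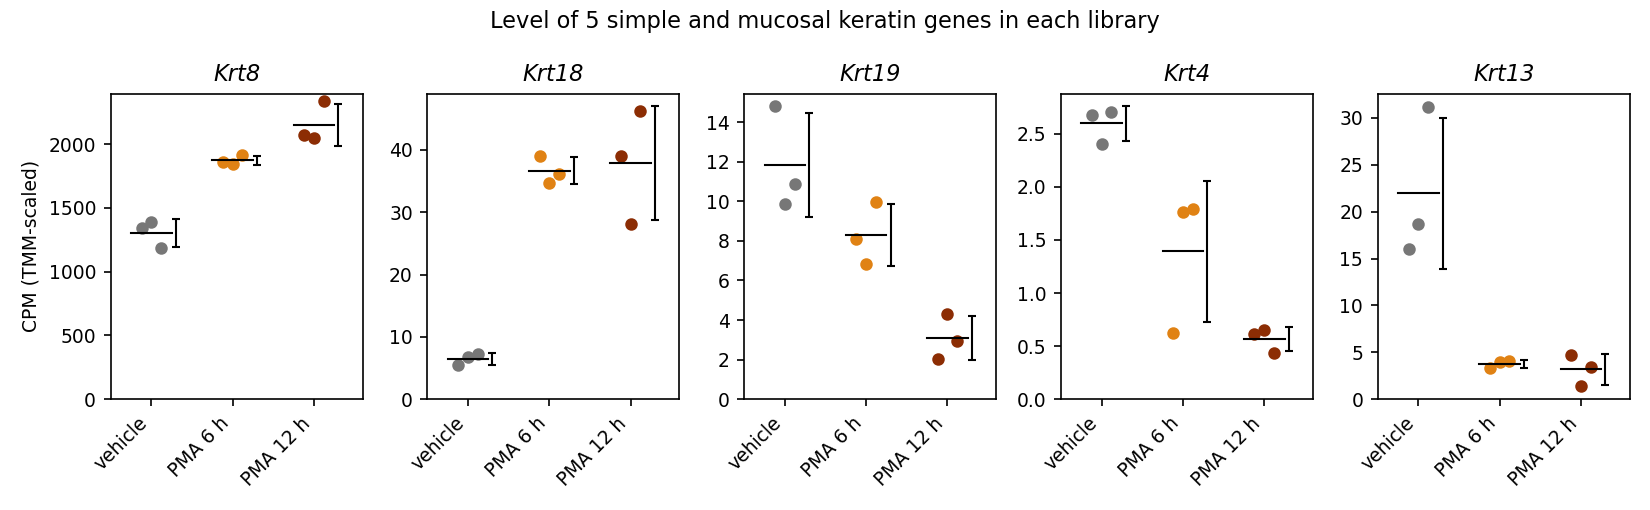
Level of each keratin gene in every library, in TMM-scaled CPM on linear axes that start at 0 and differ between panels. Points are libraries, horizontal lines group means and bars ± SD (n = 3). Krt8 and Krt18 lie above vehicle in all 6 PMA libraries, and Krt13 and Krt4 below it, while Krt19 separates from vehicle only at 12 h.

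Krt8 encodes the type II chain of simple epithelia. Its level was 1341, 1388.5 and 1181 CPM in the vehicle libraries, 1859, 1841 and 1913 CPM after 6 h, and 2067, 2046 and 2338 CPM after 12 h of PMA. All 6 PMA libraries were above all vehicle libraries, and the 12 h libraries were above those of 6 h. The log2 fold change was 0.52 ± 0.08 at 6 h (SE; 1.44-fold, adjusted p = 1.5e-05) and 0.72 ± 0.08 at 12 h (1.65-fold, adjusted p = 3.1e-07). From 6 h to 12 h it was 0.20 ± 0.08 (adjusted p = 0.046). The last call was lost with other scalings, with the replicate number as a block and when vehicle replicate 2, any single 6 h library, or the first or last 12 h library was left out (10 of 18 alternatives, adjusted p 0.030 to 0.18 over all).

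The rise of Krt8 was one relative to other genes. Without scaling beyond the library total, its log2 fold change was -0.02 at 6 h (adjusted p = 0.85) and 0.14 at 12 h (adjusted p = 0.11), while the median of all genes was at -0.57 and -0.60 there. Against that median, Krt8 stood at 0.55 at 6 h and 0.74 at 12 h. Scaling shifts all genes nearly alike, so this distance from the median is about the same under any scaling and is no separate check. Its reads per vehicle library numbered 22244 to 32311, so counting error is small beside the spread between libraries.

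Krt18 encodes the type I partner of keratin 8. It stood at 5.44, 6.75 and 7.28 CPM in the vehicle libraries, at 39.0, 34.7 and 36.2 CPM after 6 h and at 39.1, 28.2 and 46.3 CPM after 12 h. Every PMA library was far above every vehicle library, and the 12 h libraries lay on both sides of the 6 h ones. It rose 5.66-fold at 6 h (log2 fold change 2.50 ± 0.17, adjusted p = 5.4e-10) and was 5.84-fold higher at 12 h (2.55 ± 0.17, adjusted p = 5.0e-10). Between the PMA times the difference was 0.04 ± 0.15 (adjusted p = 0.83). GRCr8 lists 6 pseudogenes and 1 further gene named after Krt18, against 1 pseudogene named after Krt8 and none for Krt19, Krt4 or Krt13. Reads that map to several places were kept out of the gene counts, so the level of Krt18 is uncertain, and its fold change rests on the reads that map to it alone.

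Krt19 encodes a small type I keratin of simple and ductal epithelia that lacks most of the usual tail domain. Vehicle libraries held 14.8, 9.84 and 10.9 CPM, 6 h libraries 8.09, 6.83 and 9.94 CPM, and 12 h libraries 2.04, 4.29 and 2.95 CPM. The 6 h values overlapped the vehicle values, whereas all 12 h values were below every other library. At 6 h the log2 fold change was -0.51 ± 0.23, just short of the threshold (adjusted p = 0.054), and it passed in 9 of 18 alternatives, with adjusted p-values over all 18 of 5.3e-04 to 0.25. At 12 h Krt19 was 3.84-fold lower than in vehicle (-1.94 ± 0.26, adjusted p = 2.6e-06) and 2.69-fold lower than at 6 h (-1.43 ± 0.26, adjusted p = 2.4e-04). At 12 h Krt19 was thus lower where Krt8 and Krt18 were higher.

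Krt4 encodes the type II keratin of moist stratified epithelia such as the oesophagus. It was low throughout, with 51 to 62 reads per vehicle library, 9 to 31 at 6 h and 5 to 9 at 12 h. In CPM these were 2.68, 2.41 and 2.71 in vehicle libraries, 0.623, 1.76 and 1.79 at 6 h, and 0.612, 0.654 and 0.434 at 12 h. All PMA libraries were below the vehicle libraries, and PMA 6 h replicate 1 was as low as the 12 h libraries. The fall at 12 h was 4.49-fold (log2 fold change -2.17 ± 0.45, adjusted p = 2.9e-04). The call at 6 h (-0.89 ± 0.39, adjusted p = 0.046) was lost in 10 of 18 alternatives (adjusted p 0.0028 to 0.19), among them DESeq2, the replicate block, the fit of the compared groups alone, and the removal of any vehicle library, of the first 6 h library, or of the first or last 12 h library. That from 6 h to 12 h (-1.28 ± 0.48, adjusted p = 0.033) was lost in 7 of 17 (adjusted p 0.0061 to 0.12), with the block, with limma-voom, and when PMA 6 h replicate 2 or 3 or any single 12 h library was removed. In the fit of the PMA groups alone, Krt4 did not pass the filter on low counts and was not tested. It passed in the main fit through its vehicle reads, so the call between the PMA times carries little weight.

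Krt13 encodes the type I partner of keratin 4. The vehicle libraries held 16.1, 18.7 and 31.1 CPM, with vehicle replicate 3 highest, the 6 h libraries 3.32, 3.97 and 4.10 CPM and the 12 h libraries 4.70, 1.45 and 3.38 CPM. No PMA library reached the vehicle range, and the PMA times overlapped. Krt13 was 5.75-fold lower at 6 h (log2 fold change -2.52 ± 0.34, adjusted p = 2.5e-05) and 6.86-fold lower at 12 h (-2.78 ± 0.35, adjusted p = 1.5e-05). Between 6 h and 12 h the difference was -0.25 ± 0.39 (adjusted p = 0.61).

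**Figure D2:**
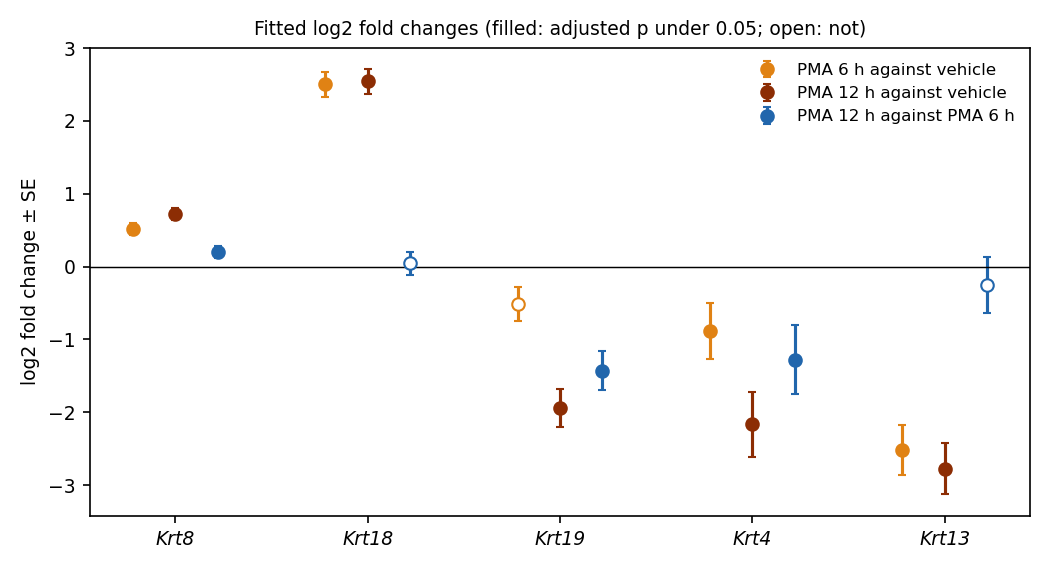
Fitted log2 fold changes with their SE for the 5 genes in each comparison, where values above 0 are higher in the PMA group named first. Filled points had an adjusted p under 0.05. Krt8 and Krt18 stand above 0 and Krt4 and Krt13 below it at both times, with Krt19 at -0.51 at 6 h and -1.94 at 12 h.

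By the calls of the 3 comparisons, Krt18 and Krt13 were sustained, with a change at 6 h and no further call. Krt19 was late, with no call at 6 h and a fall thereafter. Krt8 and Krt4 were called in 1 direction at 6 h and again from 6 h to 12 h, which for both rests on a call near the threshold. Pairs of the 5 genes were set apart by the root mean square difference of their log2 CPM over the 9 libraries, each gene centred on its own mean. Krt19 and Krt4 were closest at 0.52, Krt8 and Krt18 differed by 0.91, and Krt18 and Krt13 were farthest apart at 2.45.

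By the same measure the genes most like Krt8 were Pi4k2a, a phosphatidylinositol kinase (0.057), and Git1, an ARF GTPase-activating scaffold (0.058). Those nearest Krt18 were Abhd17b, a depalmitoylase (0.15), and Klhl21, a ubiquitin ligase adaptor (0.16). Krt19 was nearest to Usp45, a deubiquitinase (0.16), and Pard3b, a cell polarity protein (0.22). The nearest to Krt4 were Tmem81 (0.23) and Casp8ap2 (0.28), and to Krt13 Tbc1d31 (0.33) and Alms1 (0.33), genes of centrosomes and cilia.

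Krt8 and Krt18 did not rise in proportion. The log2 ratio of Krt8 to Krt18 reads, which needs no scaling between libraries, was 7.94, 7.68 and 7.34 in the vehicle libraries, 5.57, 5.73 and 5.72 at 6 h and 5.72, 6.18 and 5.66 at 12 h. Each PMA library was below each vehicle library. The group means were 7.65 ± 0.30, 5.67 ± 0.09 and 5.85 ± 0.28 in that order (SD, n = 3 each; exact permutation test over the 3 groups, p = 0.018, adjusted p = 0.027 over 3 measures). The difference from vehicle was -1.98 at 6 h and -1.80 at 12 h. For 2 groups of 3 libraries the smallest possible two-sided p is 0.1, which the exact permutation test reached for both PMA times against vehicle. The level of the ratio itself cannot be read as a ratio of transcripts, since lengths differ, and what the copies of Krt18 do to it was not tested.

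For the mucosal pair no such difference passed. The log2 ratio of Krt4 to Krt13 was -3.01 ± 0.47 in vehicle, -1.56 ± 0.68 at 6 h and -2.27 ± 1.01 at 12 h (SD, n = 3 each; exact permutation test over the 3 groups, p = 0.13, adjusted p = 0.13). The 6 h libraries were all above the vehicle libraries (difference 1.45; exact permutation p = 0.1, the smallest for 3 against 3), while those of 12 h overlapped them. Within the 12 h group the ratio was -2.87, -1.11 and -2.84, and the library with the highest ratio was the one with the lowest Krt13 level.

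**Figure D3:**
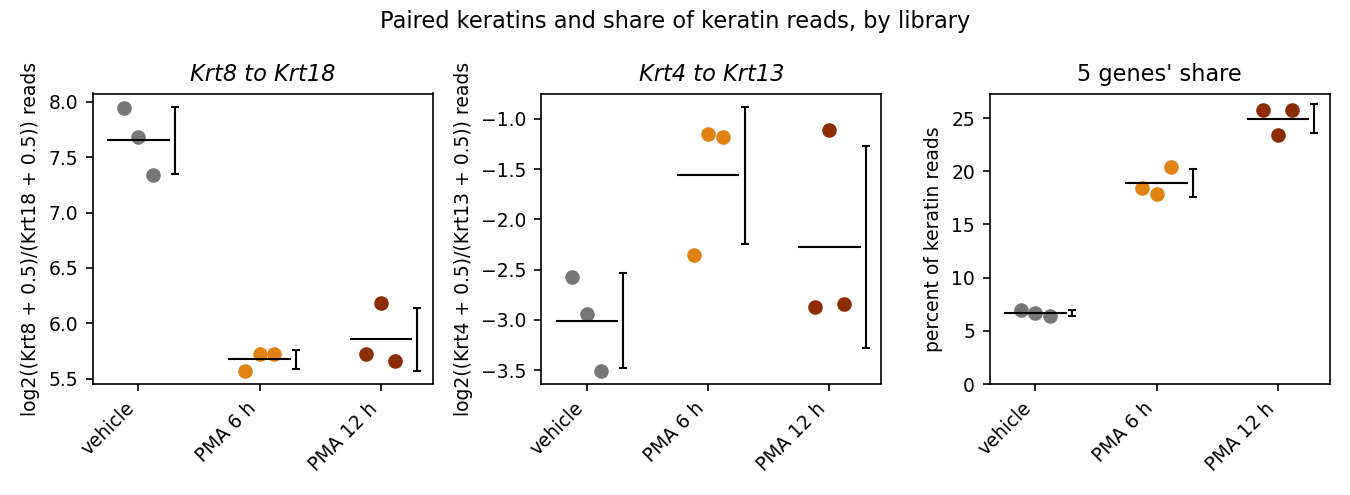
The log2 ratios of Krt8 to Krt18 and of Krt4 to Krt13 reads (0.5 added to each count) and the share that the 5 genes held of the reads on 45 keratin genes, by library. Lines are group means and bars ± SD (n = 3), and only the axis of the share starts at 0. The Krt8 to Krt18 ratio is lower in all 6 PMA libraries, and the share rises at each time.

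Among the keratin genes analysed, which leave out Krt7 and other listed keratins, the 5 genes together took a larger share of reads under PMA. Of all reads on 45 keratin genes, they held 7.01%, 6.70% and 6.36% in vehicle libraries, 18.5%, 17.9% and 20.4% at 6 h and 25.8%, 23.4% and 25.7% at 12 h. The 3 groups did not overlap (exact permutation test over the 3 groups, p = 0.0036, the smallest it can give; adjusted p = 0.011). Krt8 held most of these reads, with 6.48% ± 0.36 of keratin reads in vehicle, 18.4% ± 1.28 at 6 h and 24.4% ± 1.25 at 12 h (SD, n = 3 each). Krt18 held 0.032% ± 0.0050, 0.36% ± 0.027 and 0.43% ± 0.099 in the same order. Mean shares in that order were 0.059%, 0.082% and 0.035% for Krt19, and 0.013%, 0.014% and 0.0065% for Krt4. Krt13 held 0.11%, 0.037% and 0.037%. A larger share was not particular to these genes. Krt17 held 32.0%, 64.6% and 49.6%, while Krt5, Krt14 and Krt15 fell in share. Keratins outside the 5 genes and these 4 held 0.67%, 4.73% and 8.32%. These are shares of reads, not of transcripts. The reads on Krt8 itself hardly differed, at 85628 in the vehicle libraries together, 85023 at 6 h and 85514 at 12 h, while the total of keratin reads was lower under PMA, so the larger share goes with a smaller total.

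Keratin reads were 2.50% to 2.73% of all gene reads in vehicle, 0.876% to 0.928% at 6 h and 0.713% to 0.788% at 12 h. The basal keratins Krt5 and Krt14, a pair that fills basal cells, were lower at both times. Krt5, at 6827 CPM in vehicle, was at 402 ± 51.6 CPM at 6 h and 489 ± 92.2 CPM at 12 h. Krt14, at 5325 CPM in vehicle, was at 779 ± 85.3 CPM and 1014 ± 105 CPM. Krt15 was at 60.7 ± 6.75 CPM in vehicle, 20.2 ± 4.40 CPM at 6 h and 7.80 ± 0.60 CPM at 12 h. Krt17, a keratin of activated and appendage epithelium, was at 6427 ± 446 CPM in vehicle and 6573 ± 393 CPM at 6 h (log2 fold change 0.03, adjusted p = 0.72; -0.51 and called lower without scaling), and fell to 4363 ± 285 CPM at 12 h (log2 fold change -0.56 ± 0.08 against vehicle, adjusted p = 7.4e-06). All 4 basal keratins were thus called lower than vehicle at 12 h, and 3 of 4 at 6 h. Of all tested genes 38.2% were called lower at 12 h and 39.0% at 6 h.

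**Figure D4:**
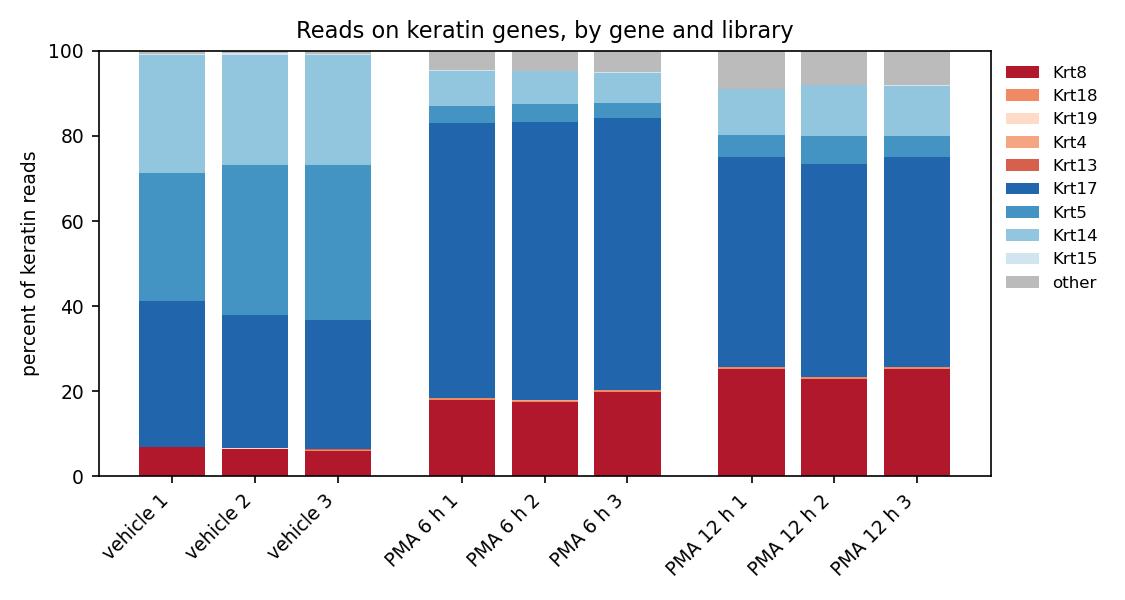
Percent of the reads on 45 keratin genes that fell on each gene, stacked for each library from 0 to 100. Krt8, at the base, grows to 24.4% on average at 12 h, while Krt5 and Krt14 shrink after vehicle and Krt17 is broadest at 6 h.

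Other keratins moved both ways. The counts of calls in this and the next lists stand beside those of all 10128 tested genes, of which 37.8% were called higher and 39.0% lower at 6 h, and 37.7% and 38.2% at 12 h. Without scaling 2277 of all genes were called higher and 5855 lower at 6 h, and 2120 higher and 6021 lower at 12 h, so that calls move to lower across all genes there. With upper-quartile scaling these were 3023 and 4837 at 6 h, and 2963 and 4827 at 12 h. Of 2 genes analysed from a list of wound and hyperproliferation keratins, Krt16 rose (log2 fold change 1.02 at 12 h) and Krt75 fell (-2.10). The call of Krt16 at 6 h (0.67) was lost with upper-quartile scaling and without scaling. Of 12 cornifying and other epithelial keratins 5 were tested, and 3 rose and 1 (Krt42, -1.42) fell at 12 h. The call of Krt42 was lost by DESeq2 and on removal of either of the first 2 vehicle libraries or either of the last 2 libraries of 12 h. The largest change was that of Krt80, a type II keratin of many epithelia, at 54.9 ± 8.82 CPM in vehicle, 405 ± 5.29 CPM at 6 h and 657 ± 18.0 CPM at 12 h (3.58 ± 0.10 at 12 h, adjusted p = 3.8e-15), followed by Krt23 (2.13). Of 22 hair and root sheath keratins 5 were tested, and 1 rose and 3 fell at 12 h (0 and 3 without scaling), with Krt82 (-3.09) and Krt84 (-2.41) the largest changes. Counts over 5 genes, beside 37.7% higher and 38.2% lower among all genes, do not set this list apart. The remaining 7 and 17 keratins of these lists were too low to test.

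Genes for proteins that anchor or organise keratin filaments were mostly called higher with TMM. Of 10 tested linker genes 7 rose and 1 fell at 6 h (6 and 4 without scaling), and 8 rose and 1 fell at 12 h (5 and 4 without scaling), with a median log2 fold change of 0.90 at 12 h beside -0.02 for all genes. Among all genes 37.8% were called higher and 39.0% lower at 6 h, and 37.7% and 38.2% at 12 h. Without scaling 2277 were called higher and 5855 lower of 10128 at 6 h, and 2120 and 6021 at 12 h. The desmosomal plakophilins Pkp2 (2.07) and Pkp1 (1.45) were the largest at 12 h, and Tchp, a keratin-binding protein also known as trichoplein, fell (-1.04). Among other intermediate filament genes 5 of 9 were tested at 12 h. Lmna was called higher (0.26, but -0.33 without scaling) and 2 fell, the lamins Lmnb2 (-2.10) and Lmnb1 (-0.99). The call of Lmna was lost with upper-quartile scaling (-0.012) and without vehicle replicate 1, vehicle replicate 2 or PMA 12 h replicate 3. Vim, the filament gene of mesenchymal cells, stayed under 1 CPM in every group.

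Genes of simple and luminal epithelia were largely called higher beside Krt8 and Krt18. Of 18 tested, 15 rose and 1 fell at 6 h, and 16 rose and 1 fell at 12 h, with a median log2 fold change of 3.08 at 12 h (16 and 2 without scaling), beside -0.02 for all genes. Of all genes 37.8% were called higher and 39.0% lower at 6 h, and 37.7% and 38.2% at 12 h. Cldn4, a tight junction protein, stood at 4.55 and Ovol1, an epithelial transcription factor, at 4.49 at 12 h. The gene that fell at 12 h was Prom1 (-1.10), a protein of membrane protrusions, and at 6 h it was Grhl2 (-0.34), a grainyhead factor. From 6 h to 12 h, 3 rose and 9 fell, where 25.3% of all genes were called higher and 25.8% lower.

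Of 20 tested regulators of keratin genes 18 rose and 1 fell at 6 h (15 and 2 without scaling), and 17 rose and 2 fell at 12 h (13 and 4 without scaling), with median log2 fold changes of 1.44 and 1.48. The same shares of all genes apply, 37.8% higher and 39.0% lower at 6 h and 37.7% and 38.2% at 12 h, and without scaling 2277 higher and 5855 lower at 6 h and 2120 and 6021 at 12 h. Grhl3, a grainyhead factor of surface epithelia (3.67), and Junb, an AP-1 subunit (3.01), had the largest changes at 12 h, and Tp63 (-1.27), a factor of basal cell identity, was among those that fell. Among 13 kinases and turnover factors that act on keratins 10 rose and 2 fell at each time (7 and 4 at 6 h, 8 and 5 at 12 h without scaling), beside those same counts over all genes. Prkcd, a protein kinase C isoform, was among those that rose (1.69 at 12 h). The 2 that fell were Prkce, another such isoform (-0.77 at 12 h), and Rps6ka1 (-0.71). The 12 h call of Prkce was lost without vehicle replicate 1 or PMA 12 h replicate 1.

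Markers of other cells that carry Krt8 and Krt18 were read beside these rises. Of 7 sustentacular markers analysed, Cyp2g1, Cyp1a2, Ermn and Sec14l3 had no read in the 9 libraries, which allows at most 0.0199 CPM by a floor of 3 counts, and 5 of 7 were under 1 CPM in every group. The summed level of the list was 162 to 171 CPM in vehicle, 692 to 746 CPM at 6 h and 796 to 827 CPM at 12 h, nearly all of it from Notch2 and Hes1. Of 5 Bowman gland markers, Sox10 and Obp2a had no read and 3 were under 1 CPM, and the sum of 16.9 to 19.4 CPM in vehicle, 66.9 to 81.1 CPM at 6 h and 117 to 153 CPM at 12 h came mostly from Sox9. Krt23 is in this list and in that of other epithelial keratins.

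Mesothelial cells also hold keratins 8, 18, 19 and 7. Of 4 such markers Wt1 had no read and Upk1b and Calb2 were under 1 CPM, whereas Msln, a surface glycoprotein, was at 2003 CPM in vehicle, 2938 CPM at 6 h and 4209 CPM at 12 h. Msln was called higher where Krt8 was (log2 fold change 0.55 at 6 h and 1.07 at 12 h; 0.01 at 6 h without scaling), and its part in the result was not tested. All 6 respiratory markers were under 1 CPM, as were 8 of 9 neuronal, 5 of 7 microvillar, 5 of 7 fibroblast, 4 of 6 immune and 6 of 7 endothelial and glial markers. Summed levels of these lists stayed at or under 7.99 CPM in each library, except for the immune list, which reached 26.6 to 29.2 CPM in vehicle, 70.4 to 72.8 CPM at 6 h and 83.7 to 95.7 CPM at 12 h through Cd68, while Ptprc had no read. Of the endothelial and glial list only Kdr, a growth factor receptor, was tested, with no read in vehicle, 0.63 CPM at 6 h and 2.50 CPM at 12 h.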

How the data were processed

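RNA-seq of 9 libraries in 3 groups was analysed. The deposited tables hold whole-number read counts per gene, unstranded and for each strand, and the submitters' processing notes name STAR 2.7.5b and the rn6 build. Which gene annotation was used is not stated there. A deposited table of normalized values was not used. The unstranded column was taken. For the 5 genes it differed from the summed strand columns by at most 2 reads, and 49.8% to 50.3% of strand counts fell on the first strand, so the libraries carry no strand information. Multimapping reads made up 5.95% to 7.74% and ambiguous reads 0.526% to 0.740% of all reads, counted apart from genes with unmapped and unannotated reads.

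In R 4.3.3, edgeR 4.0.16 (filterByExpr at a minimum count of 10, TMM, robust quasi-likelihood fit with group as its only term over all 9 libraries) tested 10128 of 17315 genes, and calls were made at adjusted p under 0.05. A run on simulated data checked the code only. It gave all genes the same spread and changed few of them, unlike these data, where most genes were called against vehicle. The SE is the log2 fold change divided by the root of F. Likeness used a prior count of 2. Ratios used 0.5 added to each count and exact permutation tests over all 1680 regroupings. Krt7 to Krt19 was planned and not run, since Krt7 was not analysed here. Lists held 208 genes, 182 of them in the tables, and from each the 2 called genes of at least 1 CPM with the largest change at 12 h are named, plus exceptions needed to explain a small count, which were chosen after their values were seen. Some genes that this rule names are not reported here. Members and lists were chosen with earlier results of these data known. Floors cover counting error only. Replicates differed by 3.88 to 27.8 in chi-square per degree of freedom, so none were copies. Alternatives used DESeq2 1.42.0 and limma 3.58.1.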

Additional observations from a re-analysis of the deposited data

How the results depend on the processing

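The calls of Krt18 and Krt13 at 6 h and 12 h, and of Krt19 and Krt4 at 12 h against vehicle, kept their direction and stayed under the threshold in all 18 alternatives. The number of genes called among all genes stayed within 1.5 times in each comparison. Without scaling beyond the library total, 1 keratin was called higher at 6 h and 1 at 12 h, since Krt8 was at -0.016 (turned) and 0.14, neither called, and from 6 h to 12 h Krt18 turned to -0.0027. At 6 h, 1 keratin was called lower by DESeq2 and with the replicate block, and 1 to 3 without 1 library. From 6 h to 12 h, 0 were called higher with RLE, upper-quartile or no scaling and with the block, and 0 to 1 without 1 library. In that step 1 was called lower with the block, with only the compared groups in the fit and by limma-voom, and 1 to 2 without 1 library. Lost calls are those of Krt4 and Krt8, and the added ones at 6 h those of Krt19. In the step from 6 h to 12 h, Krt4 was not tested when only the compared groups were fitted, since it did not pass the filter there. The count of lower calls at 6 h was 1 without vehicle replicate 1 or 3, PMA 6 h replicate 1 or PMA 12 h replicate 3. Without 1 library the step from 6 h to 12 h ranged from -0.12 to 0.22 for Krt18 and from -0.68 to 0.10 for Krt13, neither called. The signs turned without PMA 12 h replicate 3 for Krt18 and without PMA 12 h replicate 2 for Krt13. The causes were not tested. Same-numbered libraries did not deviate together (correlations of -0.11 to 0.03 over 9 pairs, the own number best in 4 of 18 cases), so the replicate block, which called 7650, 7539 and 4955 genes against 7776, 7682 and 5175 without it, is a check only. The Krt8 to Krt18 ratio and the share of keratin reads passed, and the Krt4 to Krt13 ratio did not, in every alternative run, at unadjusted p. At 12 h minus vehicle these were -1.96 to -1.66, 17.9 to 20.5 percentage points and 0.15 to 1.03. Few Krt4 reads limit what its values can show.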
